A study of Mus musculus with 4 samples.

Results

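The genes that encode the respiratory chain were followed in single cells washed from the airspaces of mouse lungs. All genes with the symbol stems mt-Nd, mt-Co, mt-Cytb, mt-Atp, Ndufa, Ndufb, Ndufc, Ndufs, Ndufv, Uqcr, Cox4 to Cox8 and Atp5 were taken, which gave 97 of the 13838 genes in the table of molecule counts. Of these, 13 are encoded by the mitochondrial genome and 84 by the nucleus, and the nuclear genes comprise 74 subunits of the chain and 10 assembly factors or related proteins that share the symbol stems (Ndufaf1 to Ndufaf7, Cox7a2l, Atp5s and Atp5sl). By complex, the set held 7 mitochondrial and 36 nuclear genes of complex I, 1 and 8 of complex III, 3 and 15 of complex IV, and 2 and 15 of complex V. Ndufa4 was counted with complex IV, of which its protein is a subunit despite its name.

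Complexes I, III and IV pass electrons from NADH to oxygen and pump protons across the inner mitochondrial membrane, and complex V (ATP synthase) uses the proton gradient to make ATP. Most of the subunits are nuclear-encoded and imported, but the catalytic core of complex IV (the Co genes), cytochrome b of complex III, the membrane arm of complex I (the Nd genes) and the proton channel of ATP synthase (the Atp genes) are made inside the organelle from polycistronic transcripts of its own genome. Resident alveolar macrophages clear lipid surfactant and are known for relying on mitochondrial oxidation.

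All mice were C57BL/6, and each of the 4 groups was a single library of lavage cells pooled from 7 mice. Control mice breathed filtered air and received saline (PBS) into the nose; HDM mice breathed filtered air and received 10 µg of house dust mite extract; APM mice inhaled Afghanistan particulate matter, a desert dust, at 5 mg/m3 for 6 h a day over 12 days and received PBS; HDM+APM mice had the dust and then the allergen. Instillations were on days 22 and 29 (sensitization) and days 36, 37 and 38 (challenge), and cells were taken on day 39, with trypan blue viability of 60 to 80%. Because a group is 1 library, no test between groups was possible and no p-value is given; every interval is a 95% interval for counting error only and does not hold the variation between mice or libraries.

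The libraries held 994 to 3918 cells and 1920648 to 15170333 molecules (unique molecular identifiers, UMIs), with a median of 1380 to 4780 UMIs per cell. Cells were grouped by the authors' 17 refined clusters: 10 of macrophages, of which 7 and 10 are named proliferating, and 7 of other cells. In the cluster named epithelial, the 5 red blood cell markers had their highest levels and summed to 416303 CPM (counts per 1000000 UMIs), against 141652 for the 6 epithelial markers. Only 1 of 5 monocyte markers was highest in the cluster named classical monocyte, where 4 of 6 markers of monocyte-derived macrophages peaked. In the macrophage clusters other than 8, control cells came with 3776 and APM cells with 3501, but HDM with 60 and HDM+APM with 46.

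The mitochondrial genes gave 1173537 of all 33643423 UMIs (3.49%) and the nuclear genes 936341 (2.78%). At least 50 UMIs were found for 96 of the 97 genes, Cox4i2 having 17, and 72 nuclear genes had 1000 or more. The mitochondrial UMIs were unevenly spread: mt-Co3, mt-Atp6 and mt-Co1 gave 274544, 237433 and 229114, whereas mt-Nd6, mt-Nd4l and mt-Atp8 gave 263, 2780 and 2745. The method primes on poly(A) tails and counts 3′ ends, so these totals are not levels per length and say little about how much of 1 transcript there was relative to another; below, each gene is compared with itself between cells. Reads of mt-Atp8 and mt-Nd4l are further uncertain, since each overlaps its downstream neighbour on the same strand of the mitochondrial genome. The last 60 bases of both genes (mouse mitochondrial genome of GRCm38, GENCODE M21, plus strand) are given with the bases shared with the neighbour in capitals, 43 shared with mt-Atp6 and 7 with mt-Nd4.
mt-Atp8, chrM:7910-7969: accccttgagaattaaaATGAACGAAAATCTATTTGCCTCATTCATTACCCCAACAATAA
mt-Nd4l, chrM:10114-10173: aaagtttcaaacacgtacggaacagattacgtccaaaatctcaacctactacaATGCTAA

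Across the clusters the 2 genomes' transcripts did not follow each other. The nuclear share of UMIs was highest in proliferating macrophage cluster 10 (3.69%), macrophage cluster 4 (3.40%) and macrophage cluster 6 (3.25%), and lowest in the epithelial-labelled cells (1.36%), B cells 1 (1.74%) and B cells 2 (1.81%). The mitochondrial share was highest in B cells 1 (4.96%), B cells 2 (4.80%) and the cells named classical monocyte (4.73%), and lowest in granulocyte-like cells (1.00%). Most cells of macrophage clusters 10, 4 and 6 came from APM (39 of 50, 1033 of 1058 and 689 of 737). The few control cells of clusters 4 and 6 had nuclear shares of 3.21% and 2.77%. HDM+APM gave 404 of 413 B cells 2 and all 308 cells named classical monocyte. In such clusters cell type and library cannot be told apart. Over the 17 clusters the Pearson correlation of both shares was 0.07 and Spearman's rho −0.14, given as a description because the clusters share libraries.

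The ratio of mitochondrial to nuclear UMIs needs no common denominator. It was 2.85 (interval 2.76 to 2.95) in B cells 1, 2.65 (2.62 to 2.68) in B cells 2, 1.91 in the cells named classical monocyte and 1.85 (1.82 to 1.88) in T cells. Macrophage clusters lay between 0.830 (cluster 10) and 1.34 (cluster 9), and granulocyte-like cells had 0.539 (0.506 to 0.574). Thus lymphocytes carried more than 1 mitochondrial UMI per nuclear one by a wide margin, granulocyte-like cells fewer, and macrophages stood near parity. Ribosomal protein genes moved with this order: they took 44.9% of UMIs in B cells 2, 41.4% in B cells 1 and 38.0% in T cells, against 10.3% in granulocyte-like cells, and across clusters they correlated with the ratio (r = 0.90, rho = 0.67). When mitochondrial and ribosomal protein UMIs were left out of the total, the nuclear share of B cells 2 was 3.60%, which moved it from rank 15 to rank 9 of 17, while macrophage clusters 10 (4.69%) and 4 (4.23%) kept ranks 1 and 2. The low rank of B cells 2 thus depended on the total used. The epithelial-labelled cells stayed at rank 17 (1.47%), but their red blood cell marker RNA (416303 CPM) was part of both totals. Their rank on a total without it was not tested.

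**Figure D1:**
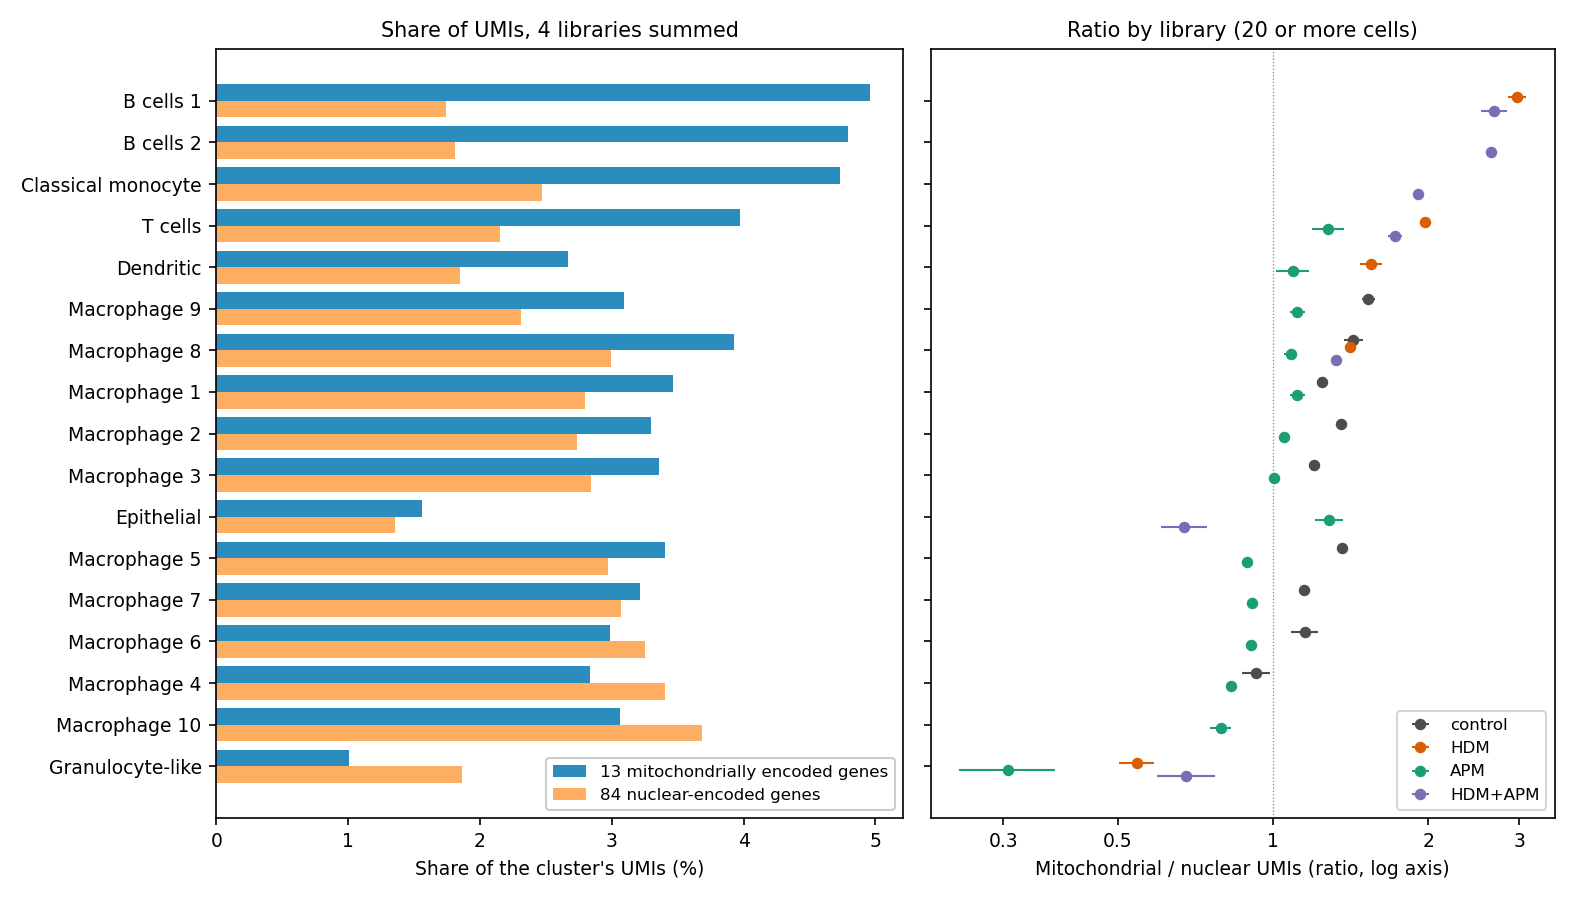
Left, share of each cluster's UMIs (%) in the 13 mitochondrial (blue) and 84 nuclear (orange) genes, 4 libraries summed; right, ratio of mitochondrial to nuclear UMIs (log axis) for each library with at least 20 cells of the cluster, with bars for the 95% counting interval. B cells have the highest ratios and granulocyte-like cells the lowest, and APM points lie left of the other libraries in 12 of 13 clusters.

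By complex, the ratio was highest for complex IV in every cluster, from 0.612 in granulocyte-like cells to 4.41 in B cells 2. Complex I ranged from 0.421 in granulocyte-like cells to 2.19 in B cells 1, complex III from 0.526 to 2.2 and complex V from 0.597 to 2.63. For each of the 4 complexes the lowest cluster was granulocyte-like cells and the highest one of the B cell clusters. Among single mitochondrial genes, mt-Atp6 peaked in B cells 2 (12335 CPM) and mt-Nd1 (4423 CPM) and mt-Cytb (4582 CPM) in B cells 1. The 3 catalytic core genes of complex IV, mt-Co1, mt-Co2 and mt-Co3, instead peaked in the cells named classical monocyte, at 9098, 4909 and 9970 CPM.

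The most abundant nuclear gene of complex IV by UMIs was Cox4i1, the common isoform of subunit 4, at 2358 CPM in macrophage cluster 4 and 596 in the epithelial-labelled cells. That of complex III was Uqcrh, the hinge protein, at 1227 CPM in T cells and 472 in the epithelial-labelled cells. For complex V, Atp5l (subunit g) had 1484 CPM in macrophage cluster 4 and 393 in the epithelial-labelled cells, and for complex I Ndufa2 had 823 CPM in macrophage cluster 7 and 313 there. These genes therefore share their low point in the epithelial-labelled cells, where red blood cell markers summed to 416303 CPM of the total. Cox7a2l, which helps join complexes III and IV into supercomplexes, was highest in dendritic cells at 778 CPM and lowest in granulocyte-like cells at 139. The 10 assembly factors and related genes together reached 837 CPM in dendritic cells and 746 to 784 in the lymphocyte clusters, against 347 to 534 in macrophage clusters 1 to 9, 783 in cluster 10 and 192 in granulocyte-like cells. This order came from Cox7a2l: the other 9 genes summed to 59.0 CPM (17 UMIs) in dendritic cells, 106 to 128 in the lymphocyte clusters and 87.3 to 148 in macrophage clusters 1 to 9.

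Among nuclear genes with at least 50 UMIs in their highest cluster, those that varied most shared neither 1 high point nor 1 low point. Ndufa4 had 779 CPM in macrophage cluster 3 and 101 in dendritic cells. Ndufa5, a subunit of complex I, had 236 CPM in macrophage cluster 6 and 26.4 in granulocyte-like cells. Ndufa1, a small membrane subunit of complex I, had 606 CPM in the cells named classical monocyte and 98.3 in B cells 1. These 3 genes had their low points in 3 different clusters. Atp5g3, one of the 3 genes that encode the c subunit of the rotor ring, had 561 CPM in macrophage cluster 7 and 99.2 in granulocyte-like cells. Ndufv3, an accessory subunit of complex I, had 437 CPM in macrophage cluster 6 and 76.4 in dendritic cells. Atp5a1, the catalytic core's alpha subunit, had 510 CPM in macrophage cluster 10 and 92.7 in the epithelial-labelled cells. On the CPM + 10 scale these 6 genes and Cox7a2l spanned 5.07-fold to 7.13-fold over the clusters, and Cox6b2 spanned 37.7-fold.

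**Figure D2:**
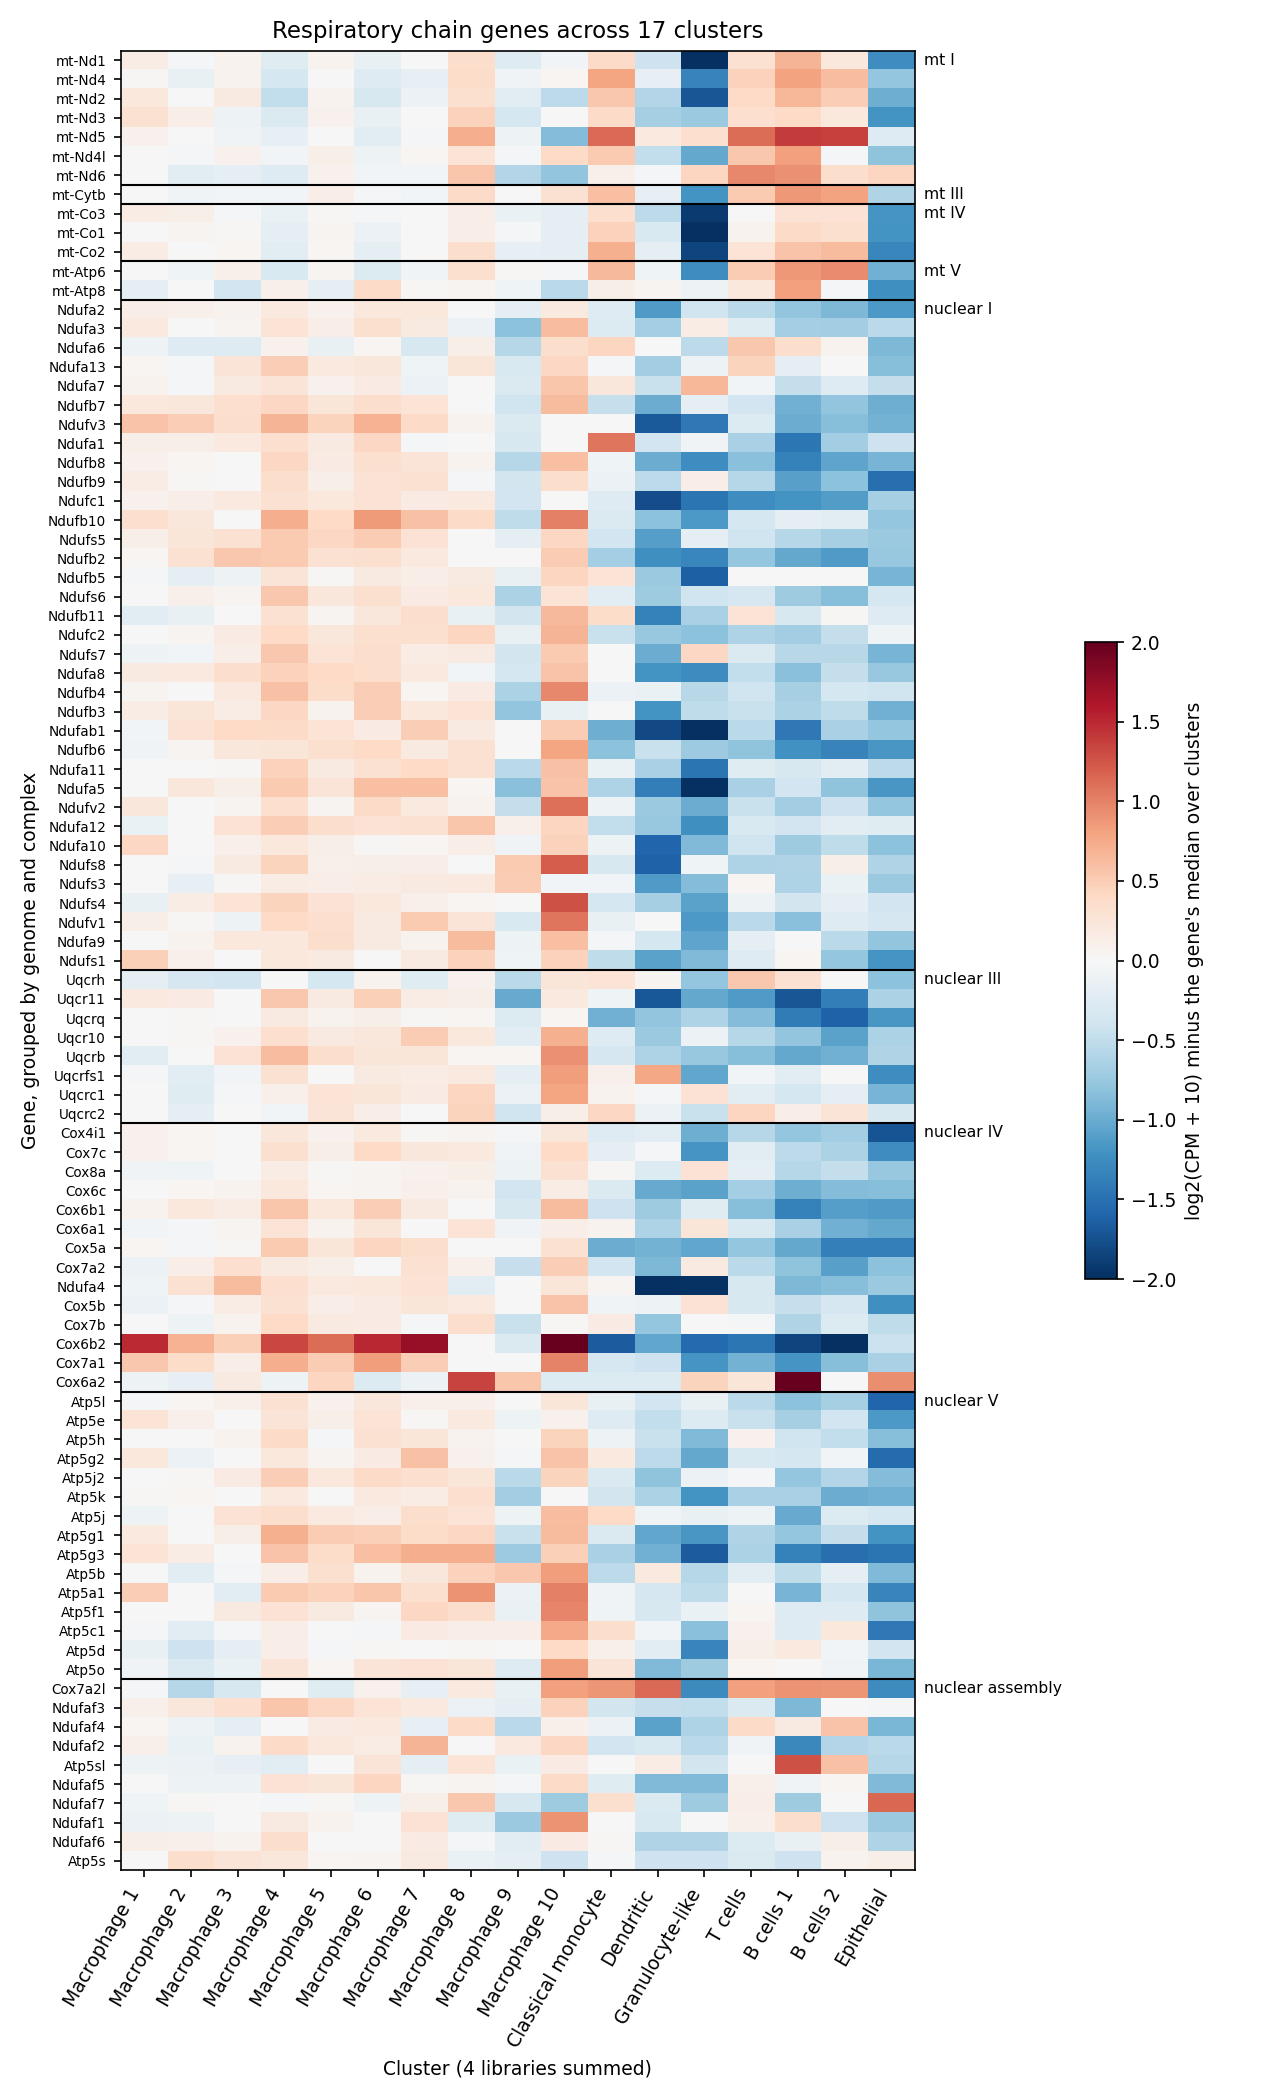
Each row is 1 gene with at least 50 UMIs (1 such gene is not shown) and each column 1 of the 17 clusters; colour is log2(CPM + 10) minus the gene's median over clusters, red higher and blue lower. Granulocyte-like cells are blue for most mitochondrial genes, and the row of Cox6b2 runs from deep red in macrophage cluster 10 (448 CPM) to deep blue in B cells 2 (2.14 CPM).

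Several subunits of complex IV exist as a common isoform and a tissue-restricted one. The restricted isoforms Cox6b2 and Cox7a1 had higher levels in macrophages than in lymphocytes, and Cox6a2 and Cox4i2 were too sparse for this. Cox6b2, known as the testis isoform of subunit 6b, had 94.1 CPM (90.5 to 97.8) over macrophage clusters 1 to 10 and 4.02 CPM (2.25 to 6.63) over T and B cells. Its levels were 448 CPM in proliferating macrophage cluster 10, 153 in proliferating cluster 7, 128 and 129 in clusters 1 and 6, 39.0 in cluster 8 and 30.2 in cluster 9, 26.5 in the epithelial-labelled cells (6 UMIs) and 5.49 in the cells named classical monocyte. At least 1 UMI of Cox6b2 was found in 24.5% of macrophages (median depth 3025 UMIs per cell), 2.27% of the deeper cells named classical monocyte (5270) and 1.18% of T and B cells (1896), so depth did not follow the order. The common Cox6b1 had 993 CPM over the macrophages, 640 in the cells named classical monocyte and 412 over lymphocytes, a far smaller span. Cox7a1, known as the heart and muscle isoform of subunit 7a, had 20.5 CPM (18.9 to 22.3) over macrophages and 2.14 over lymphocytes, and the common Cox7a2 645 and 310. Cox6a2, the other muscle isoform, was sparse, with 3.84 CPM over macrophages and 8.58 over lymphocytes; its highest level, 83.2 CPM in B cells 1, rested on 22 UMIs in 4 of 167 cells. Free RNA in droplets gives stray UMIs, and its part in these low levels was not tested. Cox4i2, the hypoxia-linked isoform of subunit 4, had 15 UMIs over all macrophages (0.54 CPM) and none in the lymphocytes or the cells named classical monocyte.

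**Figure D3:**
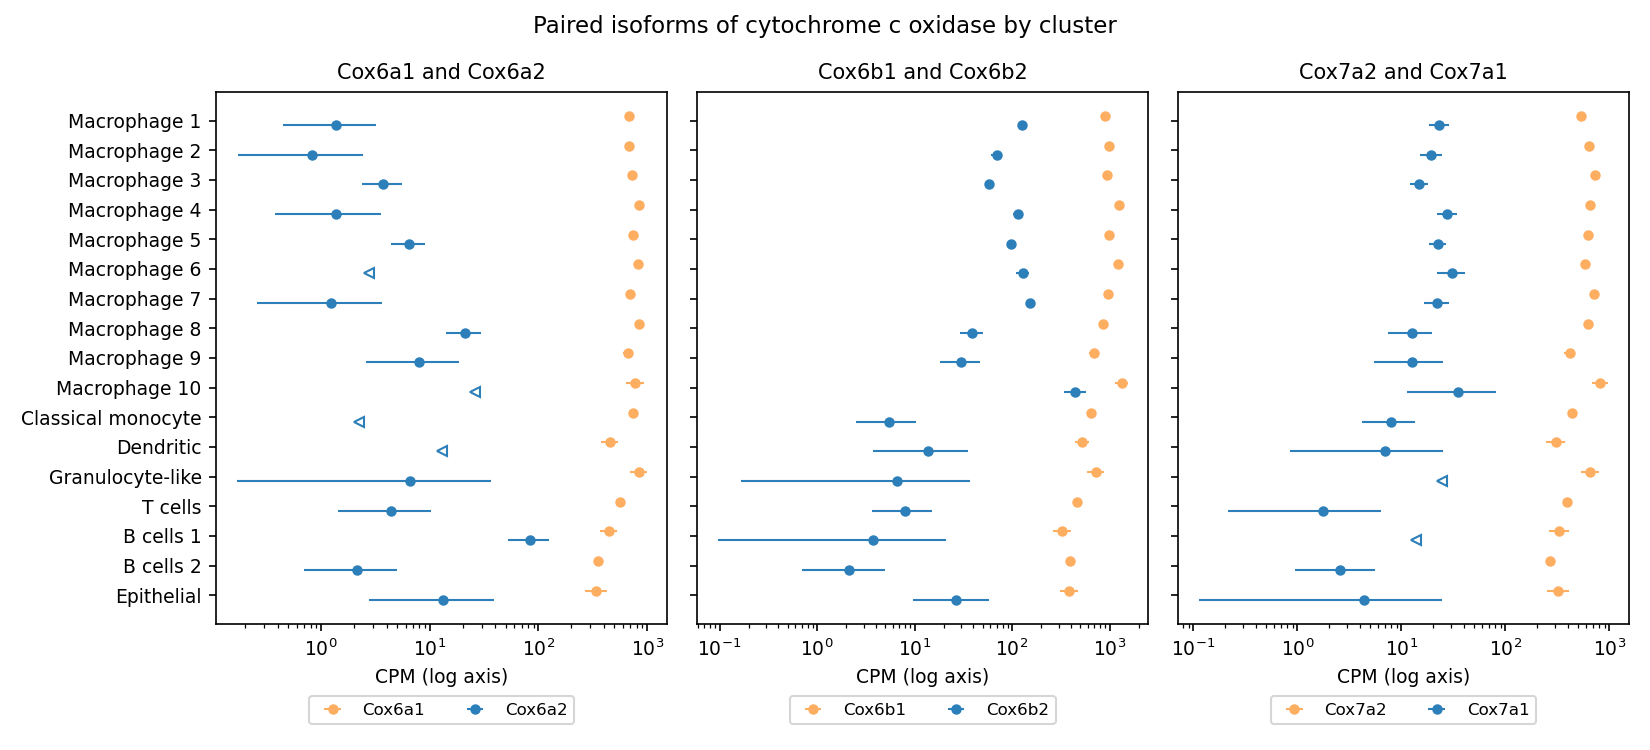
CPM (log axis) of 3 isoform pairs of cytochrome c oxidase in the 17 clusters, 4 libraries summed, with 95% counting intervals; open triangles mark the upper bound where no UMI was found. Cox6b2 spans from 448 CPM in macrophage cluster 10 to 2.14 in B cells 2, while Cox6a1, Cox6b1 and Cox7a2 vary far less.

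For the c subunit of ATP synthase, whose 3 genes encode the same mature protein, the share of each gene differed by cell type. Atp5g3 had 422 CPM over macrophages and 143 over lymphocytes, Atp5g1 422 and 229, and Atp5g2 554 and 458. On the total of all UMIs, Atp5g3 thus differed most between both classes and Atp5g2 least. Cox8a had 949 and 716 CPM and Ndufa4 615 and 311 CPM. Cox8b, Cox8c and Ndufa4l2 were not among the genes of the count table. Ribosomal protein genes took 38.0% to 44.9% of UMIs in the T and B cell clusters and 13.5% to 18.3% in the macrophage clusters. This lowers CPM in lymphocytes, here and for the isoforms above. Small differences such as those of Atp5g2 and Cox8a may not hold on another total.

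The start regions of 3 complex IV isoform genes are printed. They are Cox6b2, whose level varied most across the clusters, its common partner Cox6b1, and Cox6a1, which carries a motif of the nuclear respiratory factor NRF1. Cox6a1 and Cox6b1 both varied far less than Cox6b2, and a link between motif and level was not tested. Sequences are the 250 bases before the RefSeq start (GRCm38.p6, minus strand, 5′ to 3′), at chr5:115348959-115349208 for Cox6a1, chr7:30626115-30626364 for Cox6b1 and chr7:4753095-4753344 for Cox6b2. Capitals mark the NRF1 motif, found in both orientations with the letters overlapping, 162 bases before the start of Cox6a1.
Cox6a1: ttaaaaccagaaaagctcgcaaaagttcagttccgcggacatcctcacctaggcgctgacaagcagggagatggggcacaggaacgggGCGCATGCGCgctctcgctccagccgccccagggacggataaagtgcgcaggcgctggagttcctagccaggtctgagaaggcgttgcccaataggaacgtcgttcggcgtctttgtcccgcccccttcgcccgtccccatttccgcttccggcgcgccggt
Cox6b1: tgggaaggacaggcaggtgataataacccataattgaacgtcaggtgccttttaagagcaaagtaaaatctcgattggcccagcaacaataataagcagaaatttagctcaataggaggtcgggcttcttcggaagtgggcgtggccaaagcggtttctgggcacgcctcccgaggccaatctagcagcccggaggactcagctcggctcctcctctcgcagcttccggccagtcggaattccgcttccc
Cox6b2: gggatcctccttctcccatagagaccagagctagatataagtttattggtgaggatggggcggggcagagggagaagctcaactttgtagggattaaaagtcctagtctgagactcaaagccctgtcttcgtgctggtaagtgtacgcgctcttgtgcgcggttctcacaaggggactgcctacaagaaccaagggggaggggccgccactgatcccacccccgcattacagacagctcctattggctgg

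Windows of 300 bases (250 before to 50 after the start) were found for 68 of the 84 nuclear genes and searched on both strands for 4 motifs spelled in full. The NRF1 letters GCATGCGC occurred in 11 of the 68 genes (16.2%) and in 3.05% of all 27025 genes with a window; the 11 were Atp5g2, Atp5k, Atp5l, Cox6a1, Ndufa6, Ndufa8, Ndufa11, Ndufaf4, Ndufaf5, Uqcr11 and Uqcrc1. The YY1 letters AAGATGGCG occurred in 7 (10.3%, all genes 1.64%): Atp5j, Atp5j2, Ndufa9, Ndufc1, Ndufs4, Ndufs6 and Ndufs7. GABPA letters (CCGGAAGT) occurred in 5 (7.35%, all genes 4.31%): Atp5h, Cox8a, Ndufs3, Uqcr11 and Uqcrh. The estrogen-related receptor letters TCAAGGTCA occurred in Atp5g3 (1.47%, all genes 0.466%). The 27025 genes outnumber the 13838 of the count table and were not matched to the members for expression or base composition. Whether the excess is particular to respiratory genes was not tested. A match describes letters and not a bound site, and none of the motifs was found in the windows of Cox6b1 or Cox6b2.

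Dust exposure was compared with filtered air in macrophages, where both libraries held most of their cells. In macrophage clusters 1 to 7, 9 and 10, summed, the APM library had less mitochondrial and more nuclear respiratory RNA than control. The mitochondrial share of UMIs was 3.48% in control and 2.93% in APM, a ratio of 0.841 (0.838 to 0.845). The nuclear share was 2.77% in control and 3.19% in APM. The ratio of mitochondrial to nuclear UMIs was accordingly 1.26 in control and 0.917 in APM, a log2 difference of −0.46 (−0.47 to −0.45); with clusters given equal shares in both libraries it was −0.31. Taken singly, clusters 1, 2, 3, 5, 7, 8 and 9 held 50 or more cells of each library (cluster 8 is not part of the sum above), and there the difference ran from −0.16 in cluster 1 to −0.62 in cluster 5, with the same sign in each.

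Beside this, markers of other cells differed between these libraries. The 5 red blood cell markers summed to 504 CPM in control and 5664 CPM in APM macrophages, and the 6 epithelial markers to 275 and 1495; none was at 0. The 8 alveolar macrophage markers summed to 9205 and 10148. Cells at 10% mitochondrial UMIs or above were absent from every library, and the part that a filter, the red cell RNA or the 1-library design has in the difference was not tested.

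The mitochondrial genes did not all differ by the same amount. In control, HDM, APM and HDM+APM macrophages of these clusters, mt-Nd2, a membrane-arm subunit of complex I, had 1359, 1764, 846 and 1629 CPM. The APM value was the lowest of the 4, at 0.623 times control (0.608 to 0.638; log2 −0.68). mt-Nd3, another membrane-arm subunit, had 515, 777, 351 and 635 CPM (log2 −0.54 for APM against control). mt-Cytb, the cytochrome b gene, had 2532, 3398, 2397 and 3132 CPM, and mt-Co1, the catalytic subunit of complex IV, 6760, 8982, 6207 and 8683 CPM. APM was again lowest for both, but the log2 differences from control were only −0.08 and −0.12. mt-Nd4, mt-Nd1, mt-Co2 and mt-Atp6 lay between, at −0.40, −0.35, −0.35 and −0.33, followed by mt-Nd4l at −0.31, mt-Nd5 at −0.21, mt-Co3 at −0.16 and mt-Nd6 at −0.12 with 57 UMIs in APM and 99 in control. Only mt-Atp8 was higher in APM, with 71.0 CPM in control and 88.9 in APM (log2 0.29); its few UMIs share bases with mt-Atp6. Across the 7 single clusters, mt-Nd1, mt-Nd2, mt-Nd3, mt-Nd4, mt-Co2 and mt-Atp6 were below control in each, mt-Nd2 by −0.80 to −0.36 and mt-Nd3 by −0.99 to −0.41, whereas mt-Co1 ran from −0.26 to 0.19 and mt-Cytb from −0.26 to 0.06.

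**Figure D4:**
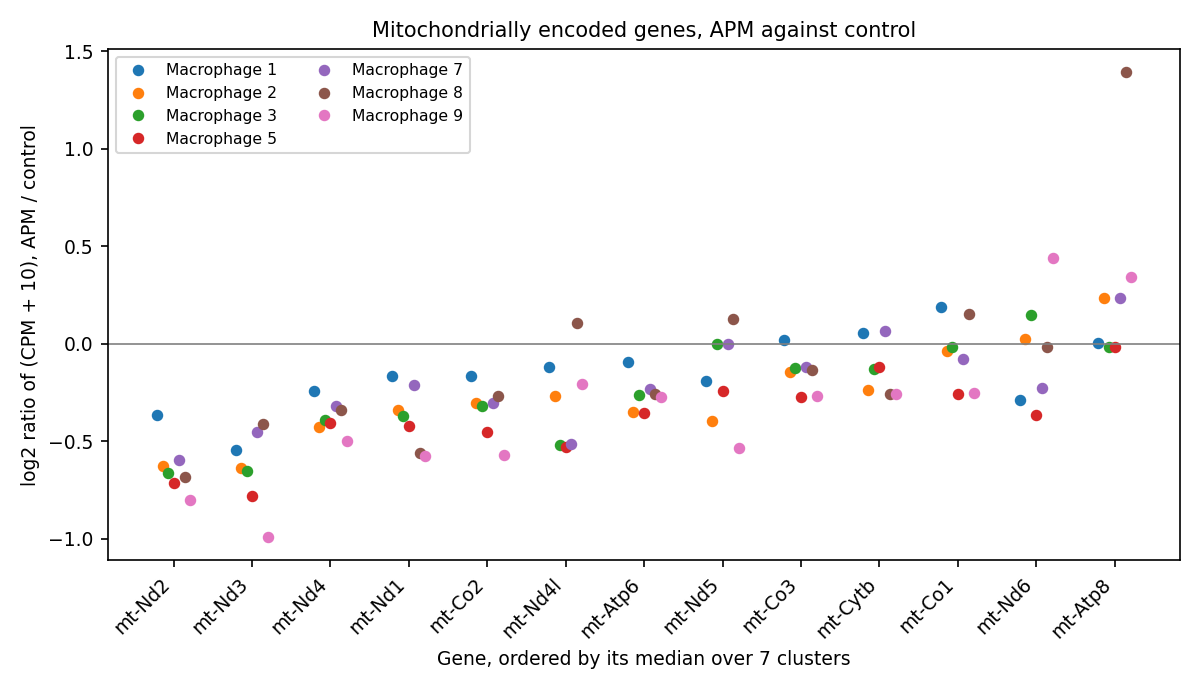
log2 ratio of CPM + 10 in APM against control for each mitochondrial gene, ordered by its median, with 1 point for each of the 7 macrophage clusters that hold at least 50 cells in both libraries. All points of mt-Nd2 and mt-Nd3 lie below 0 (down to −0.99), those of mt-Co1 and mt-Cytb scatter around 0, and mt-Atp8 and mt-Nd6 rest on few UMIs.

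The ratio of mt-Nd2 to mt-Co1 UMIs compares mitochondrial transcripts with each other and needs neither a nuclear gene nor a library total. It was 0.201 (0.198 to 0.204) in control, 0.196 (0.177 to 0.217) in HDM, 0.188 (0.169 to 0.209) in HDM+APM and 0.136 (0.133 to 0.139) in APM macrophages of clusters 1 to 7, 9 and 10. The APM library stood apart from the other 3, whose intervals overlapped. In single clusters it was 0.140 in APM and 0.205 in control for cluster 1, 0.131 and 0.199 for cluster 2, and 0.130 and 0.205 for cluster 3. Cluster 4 had 0.138 and 0.159 with overlapping intervals. In cluster 8 it was 0.282 in control, 0.205 in HDM, 0.190 in HDM+APM and 0.158 in APM. T cells, with no control sample of 20 cells, had 0.215 in HDM, 0.233 in HDM+APM and 0.152 in APM, where 39 mt-Nd2 UMIs gave an interval of 0.105 to 0.213 that overlapped those of both other libraries. Dendritic cells had 0.143 in HDM and 0.133 in APM, also with overlapping intervals. APM and control intervals were thus apart in each macrophage cluster that held both except cluster 4, while in cluster 8 those of APM and HDM+APM overlapped. The library and the dust cannot be told apart.

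Among the nuclear genes, 76 of 83 measured were above control in APM macrophages of clusters 1 to 7, 9 and 10, and 7 below, with a median log2 ratio of 0.18, against 0.01 over 9925 genes, of which 51.7% were above 0. The differences were small. At least 1.5-fold higher or lower were 0 and 0 nuclear genes, where 0.856% and 0.544% of all genes were; of the 13 mitochondrial genes 1 (mt-Nd2) was lower. At 1.2-fold, 26 of 83 nuclear genes were higher and none lower, against 8.41% and 6.96% of all genes, and 1 mitochondrial gene (mt-Atp8) was higher and 7 lower. The 4 nuclear genes with the highest ratios belonged to complexes III and I, but Ndufs1 and Ndufa10 of complex I were among the lowest. Uqcrb, a subunit of complex III, had 396 CPM in control, 461 in HDM, 549 in APM and 505 in HDM+APM, an APM to control ratio of 1.39 (1.34 to 1.44). Uqcrfs1, the Rieske iron-sulfur protein, had 143, 149, 192 and 107 CPM in the same order (log2 0.40 for APM against control). In complex I, Ndufa5 had 160, 133, 217 and 170 CPM (log2 0.42), and Ndufb10 231, 206, 307 and 276 CPM (log2 0.39). APM was the highest library for each of these 4 genes, but they were chosen for the highest APM to control ratios. The HDM and HDM+APM values came from only 60 and 46 cells. At the other end, Ndufs1, the largest iron-sulfur subunit of complex I, had a ratio of 0.899 with an interval of 0.788 to 1.03, and Ndufa10, Atp5sl and Atp5e differed by −0.04, −0.04 and −0.03 on the log2 scale.

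Of 63 nuclear genes with at least 50 UMIs in each of the 7 single clusters, cluster 8 included, 23 were above control in every one, where 14.7% of all 1185 genes so measured were; without cluster 8 it was 26 of 65, where 15.5% of all genes were. Among the 23 were Uqcrb (log2 0.24 to 0.76), Ndufs7 (0.20 to 0.51), Ndufb2 (0.19 to 0.86), Uqcrfs1 (0.18 to 0.59), Cox6b1 (0.15 to 0.50) and Cox4i1 (0.03 to 0.17). Atp5e, the epsilon subunit of ATP synthase, was the 1 gene below in all 7 (−0.29 to −0.01), where 11.3% of all genes were, and 6 of 10 mitochondrial genes were. The clusters come from the same 2 libraries and do not replicate each other. Cox6b2, under 50 UMIs in clusters 8 and 9, was above control in 1 of 7 clusters (−0.51 to 0.17), with 77.7 CPM in APM and 114.7 in control in cluster 5, where Cox6b1 had 1182.5 and 848.7. The isoforms of subunit 6b thus differed in opposite directions within that cluster. Uqcrb, Ndufb2, Ndufs1, Cox4i1 and Cox5a overlap opposite-strand genes in the table, and whether counting used the strand is unknown here.

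Other genes of mitochondrial respiration were examined as 8 lists. In APM against control macrophages of clusters 1 to 7, 9 and 10, 0 genes in any list were past 1.5-fold, and the list medians ran from −0.11 to 0.24. The mitochondrial ribosome list had a median of 0.13 over 76 of its 77 genes, and complex II with the citrate cycle 0.01.

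The lower ratio of mitochondrial to nuclear UMIs in APM was seen beyond these macrophages. In 13 clusters APM and at least 1 other library held 20 cells or more, and APM had the lowest ratio in 12, with intervals apart from the next library in each. T cells had 1.97 in HDM, 1.73 in HDM+APM and 1.28 in APM. Granulocyte-like cells had 0.544, 0.679 and 0.306 in these libraries. Dendritic cells had 1.55 in HDM and 1.09 in APM. The exception was the epithelial-labelled cluster, with 1.29 in APM and 0.672 in HDM+APM. T cells of APM had 9172 CPM of red cell markers, those of HDM 2619 and those of HDM+APM 72.

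Allergen alone was compared with control in macrophage cluster 8, the macrophage cluster with at least 50 cells in all 4 libraries, with 139 HDM and 110 control cells. Nuclear and mitochondrial genes were higher together. The nuclear share was 2.3% of UMIs in control and 3.06% in HDM, a ratio of 1.33 (1.28 to 1.38), and the mitochondrial share 3.30% and 4.31%, a ratio of 1.31 (1.27 to 1.35). The mitochondrial to nuclear ratio was 1.43 and 1.41 (log2 difference −0.02, −0.09 to 0.04), but the difference ran from −0.16 as a mean over cells to 0.22 with all alveolar macrophage clusters as 1 class. Of 65 nuclear genes measured, 55 were above and 10 below control, with a median of 0.42, against 0.10 over all 1756 genes, and all 12 mitochondrial genes measured were above (median 0.39). With all alveolar macrophage clusters as 1 class the nuclear median was 0.0703 and the mitochondrial 0.43. At least 1.5-fold higher were 19 nuclear and 2 mitochondrial genes (mt-Co1 and mt-Atp8) where 22.7% of all genes were, and 1 nuclear gene was lower where 12.6% of all genes were. The share of nuclear genes past 1.5-fold upward, 29.2%, was thus not far from the background.

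The levels of cell type markers in cluster 8 also differed between these libraries. Its 8 alveolar macrophage markers summed to 6356 CPM in control, 36581 in HDM, 5569 in APM and 34473 in HDM+APM. In the other macrophages they summed to 9205, 34922, 10148 and 34255, so the sums of both libraries with allergen were high in both classes. Over all libraries cluster 8 had the largest sum of any cluster (25591 CPM, next cluster 10 with 12580). Yet only 1 of the 8 markers was highest in cluster 8. The sum can thus rest on few markers, and single markers are not compared between libraries here. The 6 epithelial markers of cluster 8 summed to 15783, 588, 3287 and 1665, with 2 of the 6 at 0 in HDM. The 6 markers of monocyte-derived macrophages summed to 1875, 1350, 3200 and 1383 CPM and the 5 red cell markers to 375, 6195, 19541 and 42. Median UMIs per cell were 1176, 3056, 1218.5 and 4840. The part of these in the results for cluster 8 was not tested.

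In complex I, Ndufc1, a small accessory subunit, had 127 CPM in control, 377 in HDM, 249 in APM and 356 in HDM+APM. Its HDM to control ratio was 2.96 (1.86 to 4.97). Ndufv2, an iron-sulfur subunit of the NADH-binding module, went the other way, with 191, 111, 106 and 157 CPM (HDM to control ratio 0.582, 0.364 to 0.947). Control was thus the lowest library for Ndufc1 and the highest for Ndufv2, which were chosen for their HDM to control ratios. In complex IV, Cox5a had 312, 719, 476 and 697 CPM (HDM to control ratio 2.31, 1.70 to 3.18) and Cox8a 553, 1100, 747 and 1253 CPM (ratio 1.99, 1.58 to 2.53). In complex V, Atp5k (subunit e) had 324, 719, 433 and 711 CPM (ratio 2.22, 1.65 to 3.04). For these 3 genes, also chosen for high HDM to control ratios, both libraries with allergen lay above both without it. Cox4i1 varied less, with 1850, 2206, 1886 and 2183 CPM. Next lowest to Ndufv2 were Cox7a2l, Ndufa5 and Ndufb4, at log2 −0.35, −0.32 and −0.30. Of the mitochondrial genes, mt-Co1 had 5066 CPM in control and 7928 in HDM (ratio 1.57, 1.45 to 1.69), and mt-Nd2 differed by 0.18 on the log2 scale.

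Of the neighbouring pathways in cluster 8, complex II and the citrate cycle had 8 of 21 genes measured, of which 5 were at least 1.5-fold higher in HDM and none lower (median 0.76), beside 22.7% and 12.6% of all genes and their median of 0.10. The succinate dehydrogenase membrane subunits Sdhc and Sdhd had log2 ratios of 1.15 and 0.93. Assembly factors outside the symbol stems included Coa5 (1.36) and the copper chaperone Cox17 (1.19). The mitochondrial ribosome did not share this direction, with 1 gene higher and 2 lower of 23 measured and a median of −0.25. In the list for mitochondrial peroxide and superoxide defence, 1 gene was higher and 3 lower of 8 measured, with Gsr (glutathione reductase) at −1.05, Gpx4 at −1.03 and Sod2, the mitochondrial superoxide dismutase, at 0.80. The ATP synthase inhibitor Atpif1 was at −0.64 and the phosphate carrier Slc25a3 at 0.77.

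In the other macrophage clusters, summed, HDM had 60 cells against 3776 of control. The mitochondrial share was higher in HDM, while the nuclear share was equal within counting error. The mitochondrial share was 3.48% in control and 4.42% in HDM, and the nuclear share 2.77% in both (ratio 1.00, 0.980 to 1.03). The ratio of mitochondrial to nuclear UMIs was 1.26 in control and 1.59 in HDM (log2 difference 0.34, 0.30 to 0.38). Of 13 mitochondrial genes 12 were above control (median 0.37), but of 82 nuclear genes 37 were above and 45 below (median −0.02, all genes 0.04). At least 1.5-fold higher and lower were 3 and 3 nuclear genes, where 11.5% and 10.3% of all genes were, and 2 and 0 mitochondrial genes. Atp5g3 had 374 CPM in control, 701 in HDM, 463 in APM and 521 in HDM+APM (HDM to control ratio 1.88, 1.61 to 2.17). Ndufs1, Ndufaf7 and Ndufaf1 followed at log2 0.69, 0.64 and 0.59, and Ndufaf4, Ndufs3, Ndufv2 and Ndufa8 were lowest at −0.93, −0.84, −0.76 and −0.51, with only 4 and 2 HDM UMIs behind Ndufaf7 and Ndufaf4. Ndufaf1 was about as sparse as Ndufaf7, at 6.60 and 6.90 CPM over all cells. Here too the sum of the 8 alveolar macrophage markers stood apart, at 34922 CPM in HDM and 9205 in control. In the other lists, the citrate cycle genes Idh3a, Sucla2 and Pdha1 were at 0.85, 0.82 and 0.76, and Prdx5, Gsr and Gpx4 at −1.04, −0.73 and −0.63.

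**Figure D5:**
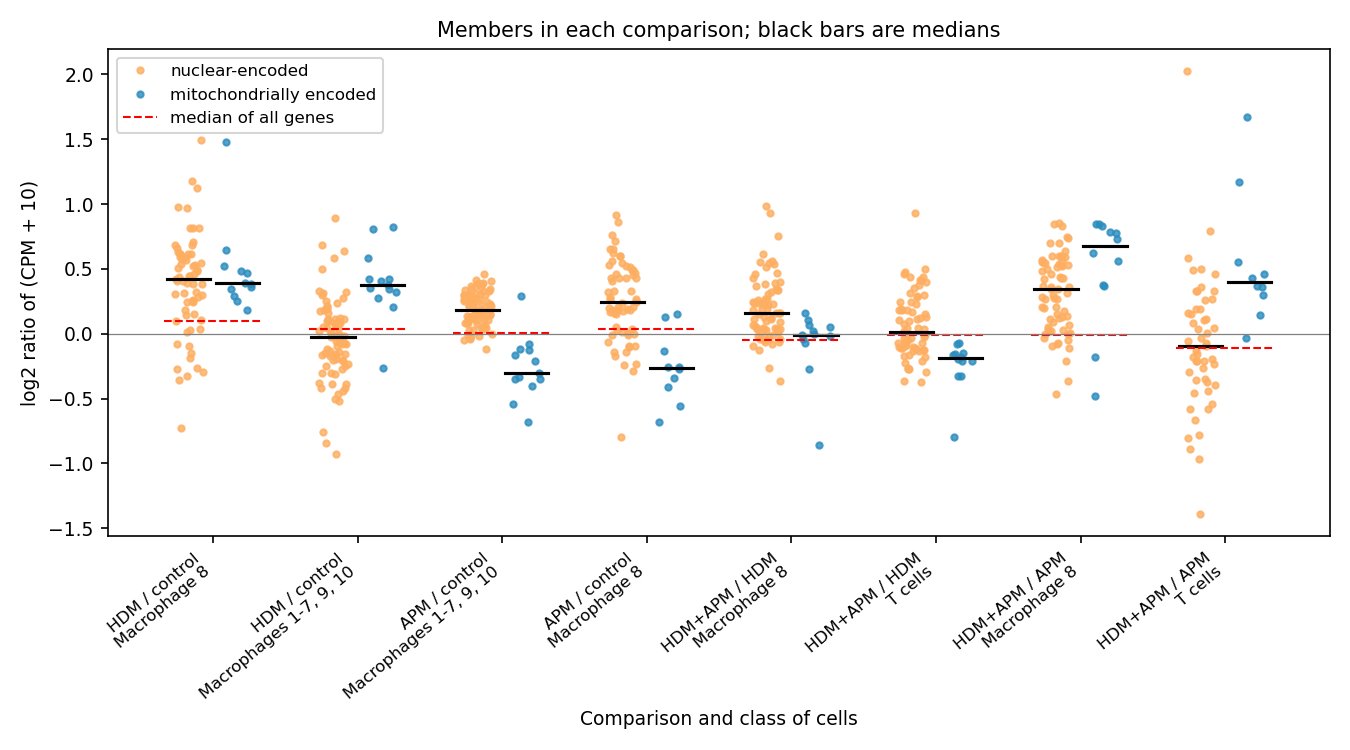
log2 ratio of CPM + 10 for every measured nuclear (orange) and mitochondrial (blue) gene in the main comparisons; black bars are medians and red dashes the median of all genes. In APM against control macrophages the orange and blue medians (0.18 and −0.31) lie on either side of 0, and in HDM against control macrophages of cluster 8 both (0.42 and 0.39) lie above the dashes.

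In cluster 8, APM was compared with control as well, and the comparison shares its control cells with that of HDM. Of 63 nuclear genes measured 49 were above control, with 9 at least 1.5-fold higher and 1 lower, where 7.43% and 4.12% of all genes were; of 10 mitochondrial genes 8 were below and 1 was past 1.5-fold. The highest were Ndufc1 (0.92), Ndufb2 (0.86), Uqcrb (0.76) and Ndufa11 (0.71), and the lowest Ndufv2 (−0.79), Ndufb4 (−0.29), Atp5g2 (−0.24) and Atp5b (−0.23). Among the mitochondrial genes mt-Nd2 was at −0.68, mt-Nd1 at −0.56 and mt-Co1 at 0.15. The mitochondrial to nuclear ratio was 1.43 in control and 1.08 in APM, a log2 difference of −0.40 (−0.48 to −0.33), inside the span of the other macrophage clusters.

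Dust followed by allergen was set against allergen alone in cluster 8 (110 and 139 cells) and in T cells (136 and 493 cells), where both libraries held enough cells. In cluster 8 the nuclear share was 3.06% in HDM and 3.38% in HDM+APM, and the mitochondrial share 4.31% and 4.47%, so both libraries lay close together. Nuclear genes were above HDM in 56 of 70 (median 0.16, all genes −0.05), and mitochondrial genes in 5 of 12 (median −0.01). At least 1.5-fold higher were 4 nuclear genes and lower none, where 5.08% and 8.91% of all genes were, and 1 mitochondrial gene, mt-Nd4l, was lower with 33 and 59 UMIs. The 4 were Ndufa4, with 592 CPM in HDM+APM and 294 in HDM (ratio 2.01, 1.64 to 2.49), Ndufs8 with 105 and 50.1, Ndufa5 (log2 0.75) and Ndufb4 (0.61). Control and APM cells of the cluster had 356 and 420.2 CPM of Ndufa4, so HDM was its lowest library. The lowest nuclear genes were Ndufa11 and Atp5g3, at −0.37 and −0.27, and then Atp5a1 and Ndufb11, at −0.12 and −0.09. In the other lists, Mrpl18 (0.78) and the complex III assembly factor Uqcc2 (0.76) were higher, and Hif1a (−0.66), Idh3a (−0.62) and Cox17 (−0.61) lower.

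In T cells the mitochondrial genes were lower and the nuclear genes split. All 12 mitochondrial genes measured were below HDM in HDM+APM (median −0.18), and the mitochondrial share was 4.20% in HDM and 3.69% in HDM+APM (ratio 0.880, 0.861 to 0.900). mt-Co1 had 7581 CPM in HDM and 6044 in HDM+APM. Of 68 nuclear genes 36 were above and 32 below (median 0.01), with 1 at least 1.5-fold higher and 0 lower, where 6.31% and 9.53% of all genes were; 1 mitochondrial gene was lower. The 1 nuclear gene was Ndufs4, a late-assembling subunit of complex I, with 43.6 CPM in HDM and 92.2 in HDM+APM (ratio 2.12, 1.22 to 3.63), but 128 in APM. Cox6b1, Atp5f1 and Uqcrb were at 0.50, 0.48 and 0.46, and Atp5k, Ndufb11, Ndufab1 and Ndufb5 at −0.37, −0.36, −0.29 and −0.27.

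Dust followed by allergen was also set against dust alone; these comparisons share the HDM+APM cells with those just given. In cluster 8 (110 and 214 cells) both shares were higher in HDM+APM. The mitochondrial to nuclear ratio differed by 0.29 on the log2 scale, and by 0.15 as a mean over cells and 0.58 with all alveolar macrophage clusters as 1 class. The mitochondrial share was 2.87% in APM and 4.47% in HDM+APM (ratio 1.56, 1.52 to 1.60), and the nuclear share 2.65% and 3.38% (ratio 1.27, 1.24 to 1.31). Of 69 nuclear genes 58 were above (median 0.34, all genes −0.01; 0.0442 with all alveolar macrophage clusters as 1 class), with 13 at least 1.5-fold higher and none lower, where 13.1% and 12.9% of all genes were. Of 12 mitochondrial genes 10 were above (median 0.68), with 7 at least 1.5-fold higher, mt-Nd1 and mt-Co2 at 0.85 and mt-Nd2 at 0.83. The highest nuclear genes were Cox7b (230 CPM in APM and 425 in HDM+APM), Atp5g3 (333 and 606), Ndufb5 (log2 0.83) and Atp5j (0.75), and among the lowest were Ndufa11 (−0.47), Ndufa9 (−0.36) and Ndufb7 (−0.11). Slirp (0.97), which stabilises mitochondrial mRNA, Sdhd (0.79) and cytochrome c (Cycs, 0.72) were higher, and Gsr (−1.57) and Atpif1 (−0.72) lower.

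In T cells (136 and 52 cells) the mitochondrial genes were above APM in 9 of 10 (median 0.40). mt-Nd5 was at 3.46 times (1.42 to 10.95) with only 5 UMIs in APM, mt-Nd2 at 2.26 times (1.63 to 3.23), and mt-Cytb, the 1 gene below, at 0.980 times (0.844 to 1.14). The nuclear genes were split, 22 above and 29 below, with 3 at least 1.5-fold higher and 6 lower where 13.8% and 23.2% of all genes were. Their median of −0.10 was close to that of all genes (−0.11), and both turned positive, 0.12 and 0.10, when mitochondrial and ribosomal protein UMIs were left out of the total, a shift of 0.21 that was the only one over 0.1 among the 8 comparisons in cluster 8, T cells and the other macrophages. Atp5g3 had 225 CPM in HDM, 226 in HDM+APM and 47.9 in APM, the last from 3 UMIs, for a ratio of 4.70 (1.54 to 23.4). Atp5b, the catalytic beta subunit of ATP synthase, had 236, 256 and 687 CPM, for a ratio of 0.373 (0.253 to 0.556). The 2 subunits of ATP synthase thus differed in opposite directions between the same T cells of APM and of both other libraries. Cox5a had 350, 290 and 575 CPM, and Ndufa11 and Ndufb11 were at −0.89 and −0.80.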

How the data were processed

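Per the labels' protocols, lavage cells were captured with a 10x Genomics 3′ end kit (v2), and per the submitters' processing notes the tools were Cell Ranger 2.2.0 and Seurat 2.3.4 with the build mm10. The authors deposited 1 table of raw UMI counts (13838 genes, 9925 cells) and 1 of cell annotations, from which library and refined cluster were taken. The deposited cells all had at least 496 UMIs and under 10% mitochondrial UMIs; 51, 9, 43 and 19 cells were over 9% in control, HDM, APM and HDM+APM. No doublet caller was run; 42 barcodes occur in more than 1 library. The 4 groups come from the sample titles.

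UMI counts were summed per cluster and library and given as CPM. Intervals (95%) are exact Poisson for a level, exact conditional binomial for a ratio and Wald on the log odds for a difference of ratios, in place of the conditional binomial first planned. Ratios between libraries are on the log2(CPM + 10) scale for genes with at least 50 UMIs over both libraries, so a fold of a low gene is understated, and comparisons needed 50 cells in each library. Fixed-size rules named the genes: all mitochondrial genes and isoform pairs, the 4 highest and 4 lowest nuclear genes per comparison, the most abundant of each complex, the 8 with the widest range over clusters among those with at least 50 UMIs in their highest cluster, and up to 3 per pathway list past 1.5-fold; single examples beyond these were chosen after their values were seen. A member and a pathway gene that the rules would name are not reported here, though the counts hold them. The members and lists were chosen with earlier results of these data known. Of the nuclear genes, 23 overlap an opposite-strand gene of the table and 2 (Ndufa13 and Atp5o) a same-strand one, and reads of near-identical pseudogenes may be lost or split. Python 3.11.15, numpy 2.4.6, scipy 1.17.1 and pandas 2.3.3 were used, and the calculation was tested on simulated data. Alternatives covered pseudocount, UMI minimum, cell depth, free RNA, means over cells, cluster make-up and the total used for scaling.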

Additional observations from a re-analysis of the deposited data

How the results depend on the processing

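All 283 alternative values of log2 results larger than 0.1 kept their direction; 341 of 351 did when smaller ones are counted. For HDM against control in macrophage cluster 8, the log2 difference of the mitochondrial to nuclear ratio was 0.12 in cells with at least 1000 UMIs, −0.16 as a mean over cells and 0.22 with all alveolar macrophages as 1 class, so its sign is not settled; the nuclear median was 0.0703 with all alveolar macrophages. For APM against control in the other macrophages, the nuclear median was 0.15 with a pseudocount of 50 CPM and the ratio difference −0.47 as a mean over cells and −0.31 with equal cluster shares. For HDM+APM against HDM in cluster 8 the ratio difference was −0.20 as a mean over cells. For HDM+APM against APM in cluster 8 it was 0.35 in cells with at least 1000 UMIs, 0.15 as a mean over cells and 0.58 with all alveolar macrophages, and the nuclear median with all alveolar macrophages was 0.0442. For T cells of HDM+APM against APM, the nuclear median was 0.12 without mitochondrial and ribosomal protein genes in the total. The cause was not tested in any of these. The ratio was 0.979 in the epithelial-labelled cells as a mean over libraries and 0.482 in granulocyte-like cells with at least 1000 UMIs. Nuclear genes higher and lower at 1.2-fold in cluster 8 numbered 44 and 6 of 65 for HDM against control (all genes 40.4% and 26.6%), 30 and 2 of 63 for APM against control (25.7% and 18.8%), 23 and 2 of 70 for HDM+APM against HDM (19.6% and 28.6%) and 41 and 2 of 69 for HDM+APM against APM (29.0% and 30.4%). In T cells they numbered 15 and 5 of 68 against HDM (23.7% and 26.4%) and 12 and 17 of 51 against APM (29.1% and 39.8%), and in the other macrophages 10 and 16 of 82 for HDM against control (32.0% and 25.6%). At 2-fold HDM against control in cluster 8 had 3 and 0 (9.91% and 4.33%), HDM+APM against APM in T cells 1 and 1 (5.22% and 8.22%) and the other comparisons of these classes none. Leaving out the 23 macrophage-cluster cells whose coarse type is epithelial was added after seeing the data. It moved none of 36 values out of the interval of the main result. That interval holds counting error for ratio differences, but for medians it holds the spread between genes. By the same measure, 5% free RNA subtracted moved none of 42 values, and subunits alone or no UMI minimum none of 28. Free RNA was taken as the mean profile of the library's own cells, mostly macrophages in control and APM. Its subtraction could therefore hardly move those macrophages, and the part of red cell and epithelial RNA was not tested. Equal cluster shares were not run for HDM against control, whose clusters hold at most 17 HDM cells. No paired analysis was possible because each group is 1 library. With 1 pooled library per group, depth sets only the counting error; effects of library, batch and mice cannot be told apart from those of the exposures.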
